A study of Mus musculus with 6 samples.

Results

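Messenger RNA on tagged ribosomes was measured in mouse brain for 10 genes that encode transcription factors of the astrocyte lineage, Sox9, Sox2, Nfia, Nfib, Nfix, Hes5, Id3, Id4, Rfx4 and Lhx2. They were chosen by symbol from the 12968 gene rows of the deposited table, all 10 were present, and all 10 passed the filter on low values. The MCAO group was 3 mice whose middle cerebral artery was occluded for 1 h, and the control group was 3 mice without occlusion; the labels describe no sham operation. All animals were killed after 3 days, and tissue came from the left hemisphere throughout. Both groups went through RiboTag immunoprecipitation. In RiboTag mice an epitope-tagged copy of the ribosomal protein Rpl22 is made in cells with Cre recombinase, so that the ribosomes of those cells and the RNA bound to them can be purified. Astrocytes are the cells that the title of the series speaks of; the Cre driver, strain, age and sex were not found in the labels. Values are scaled read counts, that is, reads of a gene after division by a factor for each library. A gene is called where limma's adjusted p was under 0.05 over the 12549 genes tested.

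As background, astrocytes arise from radial glia in a sequence of regulatory steps in which SOX9 comes early and induces NFIA, and the 2 proteins then act on common glial target genes. Notch signalling, through RBPJ and repressors such as HES5, and BMP signalling, through SMAD proteins and the ID proteins, hold back neuronal genes in the same cells. Most of these factors continue to be made in mature astrocytes, and several are also known from neurons, oligodendrocyte lineage cells, ependyma or vessels.

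Depth ranged from 882263 recovered reads in MCAO 2 to 9519548 in control 1. All 18 resting astrocyte markers on a list were in the table, and so were all 12 neuron and all 13 oligodendrocyte markers, so the precipitates held RNA of more than 1 cell type. Controls 2 and 1 stood apart in the factor genes, in opposite directions. Control 2 was the lowest control for 9 of the 10, against 38.6% of all tested genes. It differed from the mean of the other controls by a median of -0.59 on the log2 scale (range -1.11 to -0.02), while the median over all tested genes was 0.00. Control 1 was the highest control for 9 of the 10, against 27.9% of tested genes, with a median difference of 0.37 (0.00 over all tested genes). MCAO 1 was the lowest MCAO library for 7 of the 10 (31.9% of tested genes). The changes of all 10 genes without control 2 are given below.

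None of the 10 factor genes was called after MCAO, in either direction, while 3.08% of all tested genes were called, 2.30% higher and 0.789% lower. Of the 10, edgeR and DESeq2 on the recovered reads also called 0, against 4.14% and 4.37% of tested genes. At an unadjusted limma p under 0.05 there was 1 factor gene, Id4, against 19.3% of tested genes. The groups overlapped in all 10 genes, whereas they did not overlap in 24.9% of tested genes. Log2 changes were positive in 4 genes and negative in 6, with a median of -0.11 (-0.01 over all tested genes) and a median size of 0.22 (0.26 over all tested genes). The sign count and median moved with the libraries used. Without control 2 there were 2 positive changes and a median of -0.27. Without the shallowest library of each group (control 2 and MCAO 2) these were 0 and -0.28. Without control 1 the count was 4 and the median -0.023, and without MCAO 1 the count was 4 and the median -0.015. The precision was close to that of a typical gene, with a median SE of 0.21 against 0.23. For 8 of the 10 genes the 95% interval of the change lay inside a 2-fold rise or fall, against 67.4% of tested genes. A call that was missed does not show that a level stayed the same, and in tissue samples fewer cells of a type and less RNA per cell cannot be told apart.

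**Figure D1:**
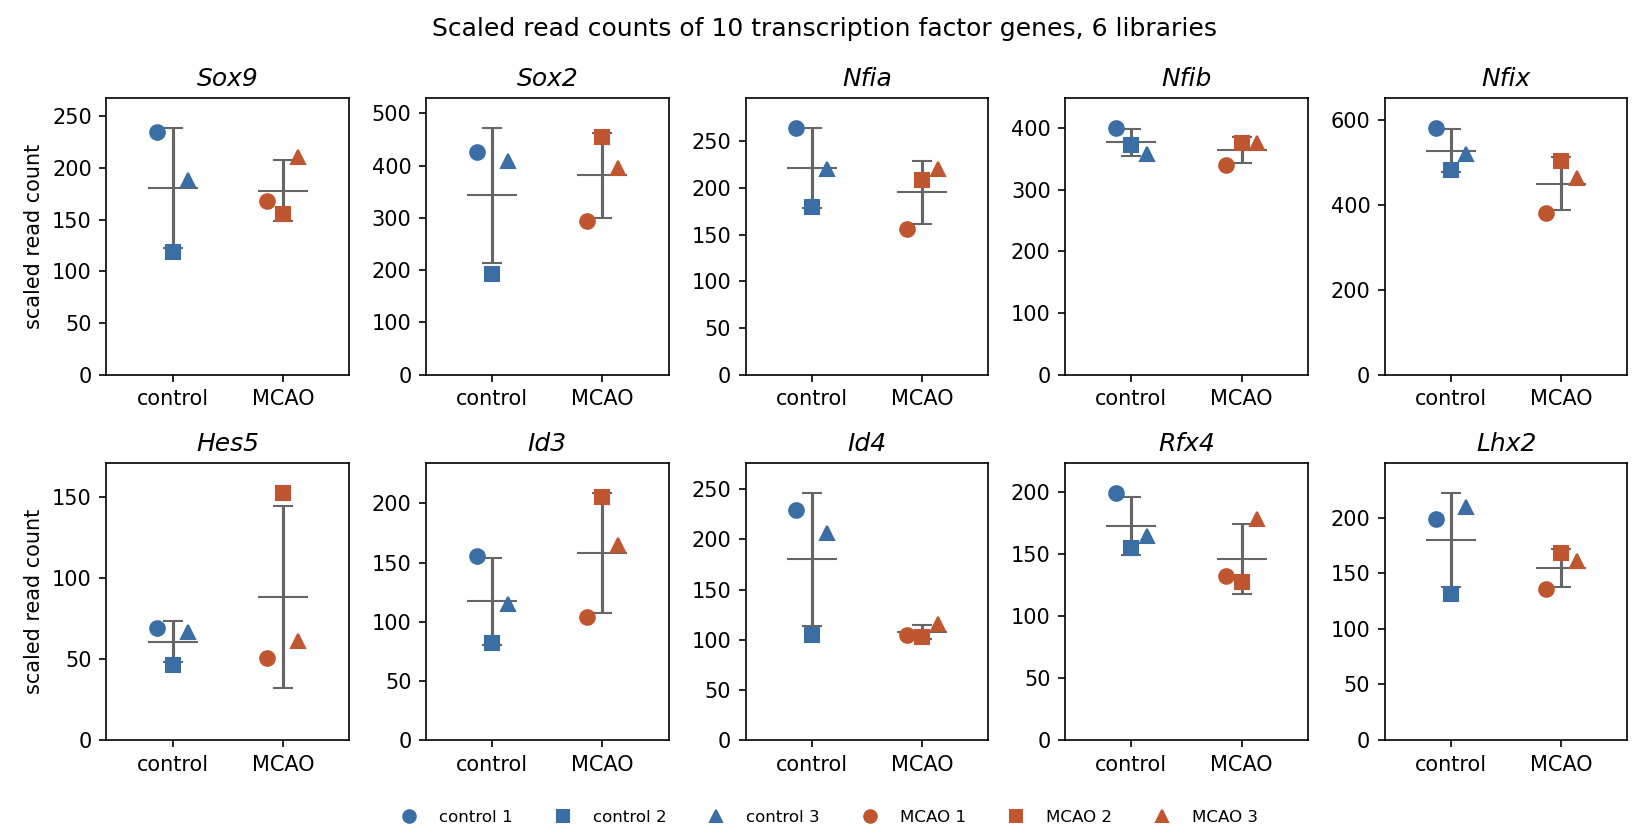
Scaled read counts of the 10 factor genes in each of the 6 libraries (y axis, each panel from 0), with the group mean as a horizontal line and the SD as a bar (n = 3). The groups overlap in every panel, and control 2 (blue square) is the lowest control in all panels but that of Nfib.

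The SOX factors carry an HMG box, a DNA-binding domain that bends DNA. Sox9 (GRCm38.p6 chromosome 11, 112782210 to 112787757) encodes the factor most often used to mark astrocyte nuclei in the adult brain. It stood at 235, 119 and 189 scaled reads in controls 1, 2 and 3 and at 168, 156 and 211 in MCAO 1, 2 and 3. The MCAO values all lay within the range of the controls, and the group means were 181 ± 58.4 and 178 ± 29.1 (SD, n = 3 each). This is a log2 change of 0.02 (SE 0.23, 95% interval -0.46 to 0.51, limma adjusted p = 0.971), which allows anything from a fall to 0.726 of the control level to a 1.42-fold rise.

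Sox2 (chromosome 3, 34649995 to 34652461) encodes a factor that maintains neural stem cells and is kept in astrocytes. Its levels were 426, 193 and 409 in the controls and 294, 454 and 396 after MCAO, so that control 2 was lowest of the 6 and MCAO 2 highest. Its log2 change was 0.22 (SE 0.26, adjusted p = 0.692). Sox2 lies within the span of the long noncoding gene Sox2ot, which is also in the table, and the strand setting of the counting is not given, so reads of the 2 genes in that span may not be told apart. The spread of the controls, an SD of 130, was far above the 19.0 that counting error alone would give, and for Sox9 it was 58.4 against 13.7. Without control 2 both genes changed sign, Sox9 to -0.25 (adjusted p = 0.520) and Sox2 to -0.15 (adjusted p = 0.706), and neither was called.

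The nuclear factor I proteins bind a palindrome of which TTGGC is the left arm, and are needed for the start of glial gene expression in the embryo. Nfib (chromosome 4, 82290173 to 82506751) varied least of the 10 genes. It stood at 401, 373 and 358 scaled reads in the controls and 341, 376 and 376 after MCAO. The SD was 22.0 in controls and 20.6 after MCAO, where counting error alone would give 20.9 and 23.2 (n = 3 each). The log2 change was -0.05 (SE 0.14, 95% interval -0.35 to 0.25, adjusted p = 0.886), and only 1.31% of tested genes had a smaller SE.

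Nfia (chromosome 4, 97578066 to 98118876), the member of the family that SOX9 induces, was at 264, 179 and 220 in controls and at 156, 208 and 220 after MCAO. MCAO 1 was lowest and control 1 highest, with the other 4 libraries between 179 and 220. The log2 change was -0.18 (SE 0.19, adjusted p = 0.641). The long noncoding gene E130114P18Rik overlaps Nfia and is also in the table, so the limit given for Sox2 holds for Nfia and its ratios too. Nfix (chromosome 8, 84704712 to 84801238), known for the timing of stem cell differentiation, was at 582, 481 and 519 in controls and 381, 504 and 464 after MCAO. MCAO 2 lay within the range of the controls and the other MCAO libraries below it, with a log2 change of -0.23 (SE 0.15, adjusted p = 0.428). Nfic, the remaining family member and not one of the 10, was at 400 ± 37.9 in controls and 329 ± 39.9 after MCAO (log2 change -0.28, SE 0.15, adjusted p = 0.325). All 4 nuclear factor I genes thus had negative log2 changes between -0.28 and -0.05, and limma called 0 of them. Without control 2 the changes were -0.32 for Nfia, -0.06 for Nfib and -0.30 for Nfix (adjusted p 0.351 to 0.882). Rescaled to the mean of 18 resting astrocyte markers, Nfia and Nfib turned positive (0.05 and 0.18).

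Hes5 (chromosome 4, 154960626 to 154962372) encodes a basic helix-loop-helix repressor switched on by Notch. It was at 69.1, 46.1 and 66.4 scaled reads in controls and at 50.6, 152 and 61.3 after MCAO. A single library, MCAO 2, stood far above the other 5. Its value rested on 49 reads, with an exact 95% counting interval of 113 to 201 scaled reads, above the intervals of the other 2 MCAO libraries, 40.5 to 62.5 in MCAO 1 and 49.4 to 75.2 in MCAO 3. Hes5 had a log2 change of 0.38 (SE 0.34, adjusted p = 0.574), which was -0.10 without MCAO 2 (adjusted p = 0.901) and 0.20 without control 2 (adjusted p = 0.828). Hes1, a related Notch target, was at 29.6, 30.2 and 42.3 in controls and at 31.2, 46.7 and 27.3 after MCAO (log2 change 0.02, SE 0.31). MCAO 2 was its highest library too, but close to control 3. MCAO 2 is the shallowest library and no counting interval was made for Hes1, so whether its value exceeds counting error was not tested.

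ID proteins have a helix-loop-helix but no basic region. They pair with E proteins and keep them off DNA, and their genes are classic BMP targets. Id4 (chromosome 13, 48261116 to 48266028) was the factor gene with the largest change in size. It stood at 229, 105 and 207 scaled reads in controls 1, 2 and 3 and at 105, 103 and 116 in MCAO 1, 2 and 3. The MCAO values were nearly equal, with an SD of 7.13 where counting error alone would give 12.4, whereas control 2, at 59 reads, lay at the MCAO level and the other controls far above it. On the log2 scale Id4 differed by -0.66 (SE 0.25, 95% interval -1.19 to -0.13, limma adjusted p = 0.169). Without control 2 the change was -1.01 and was called (adjusted p = 0.00834, with 0.717% of tested genes called lower). It was also called, at -0.98, without the shallowest library of each group, control 2 and MCAO 2 (adjusted p = 0.00273, 1.88% called lower), and with library weights (-0.90, adjusted p = 0.00580, 3.47% called lower). Control 2 was singled out from the values of these same genes and is the low control of Id4, so these calls are not separate support. Without control 1 the change was -0.45 (limma adjusted p = 0.439) and without control 3 it was -0.52 (adjusted p = 0.382), not called. Over all 20 alternative settings the change of Id4 was negative, from -1.01 to -0.43, with adjusted p from 0.00273 to 0.765. The highest of these p-values came from rescaling to the astrocyte markers.

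Id3 (chromosome 4, 136143822 to 136145392), which is also made in vessels, was at 155, 81.6 and 115 scaled reads in controls and at 104, 205 and 165 after MCAO. The 2 highest libraries were MCAO 2 and MCAO 3, and the lowest was control 2. The log2 change was 0.42 (SE 0.26, 95% interval -0.14 to 0.99, adjusted p = 0.407), and it was 0.19 without control 2 (adjusted p = 0.758) and -0.03 without the shallowest library of each group. Neither of the other Id genes was called. Id1 was at 32.1 ± 11.6 in controls and 48.2 ± 18.2 after MCAO (log2 change 0.58, SE 0.35), and Id2 was at 412 ± 193 and 354 ± 69.2 (-0.09, SE 0.31), with control 2 again lowest, at 189.8 against 538 and 509.

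The sequences before the start sites of Id3 and Id4 are shown because these 2 related genes had log2 changes of opposite sign. In the unweighted limma fit on all 6 libraries neither change was called (adjusted p = 0.407 for Id3 and 0.169 for Id4). Without the shallowest library of each group the Id3 change was -0.03, the same sign as for Id4. A link between sequence and change was not tested. The sequences shown are the 250 bases before the annotated start in RefSeq (GRCm38.p6), chr4:136143572-136143821 and chr13:48260866-48261115, both on the plus strand, printed 5′ to 3′. Capitals mark GGCGCC, the core of a GC-rich element through which SMAD proteins act, and GGGCGG, the GC box, each searched on both strands.
Id3: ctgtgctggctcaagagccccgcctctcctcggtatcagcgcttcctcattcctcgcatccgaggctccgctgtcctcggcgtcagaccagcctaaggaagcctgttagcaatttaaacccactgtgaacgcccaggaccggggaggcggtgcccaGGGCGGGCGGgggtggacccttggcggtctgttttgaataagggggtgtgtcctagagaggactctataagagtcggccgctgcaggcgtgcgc
Id4: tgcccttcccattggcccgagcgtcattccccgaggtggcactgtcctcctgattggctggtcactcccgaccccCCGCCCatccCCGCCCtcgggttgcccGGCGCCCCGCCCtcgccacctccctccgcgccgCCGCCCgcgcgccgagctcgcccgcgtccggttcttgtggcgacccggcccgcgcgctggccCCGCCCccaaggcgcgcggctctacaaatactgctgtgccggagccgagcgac
The Id4 window was richer in G and C, at 75.6% against 62.8% for Id3 and a median of 52.4% over all 32851 promoters of the table. It held 5 GC boxes and 1 GGCGCC, which abuts a GC box, and the Id3 window held 2 overlapping GC boxes and no GGCGCC. Of all promoters, 32.7% held a GC box and 9.59% held GGCGCC. The core of the RBPJ site, TGGGAA, was found in 21.6% of promoters. It occurred in the windows of 3 factor genes: at 2 places in that of Hes5, a known RBPJ target, 226 and 82 bases before the start, once in that of Id4, 245 bases before the start and not in capitals above, and once in each of the 2 windows of Lhx2, 230 and 9 bases before the start. The Hes5 window also held 4 matches to GGCGCC. The Hes5 window lies inside the annotated span of the gene and is not printed. The table had entries for 8 of the 10 factor genes. These matches are descriptions of letters, and no binding was measured here.

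Rfx4 (chromosome 10, 84756036 to 84906538) encodes a winged-helix factor of the RFX family that is abundant in radial glia and astrocytes. It was at 199, 154 and 164 scaled reads in controls and at 132, 128 and 178.5 after MCAO. MCAO 1 and MCAO 2 lay below every control and MCAO 3 between the controls, and the log2 change was -0.25 (SE 0.18, adjusted p = 0.491). Lhx2 (chromosome 2, 38339271 to 38369737) encodes a LIM homeodomain factor that patterns the embryonic cortex. It was at 198, 131 and 210 in controls and at 135, 168 and 161 after MCAO, so that all 3 MCAO libraries fell between control 2 and the other controls. Its log2 change was -0.19 (SE 0.20, adjusted p = 0.630). Without control 2 the change was -0.40 for Lhx2 (adjusted p = 0.247) and -0.33 for Rfx4 (adjusted p = 0.425).

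**Figure D2:**
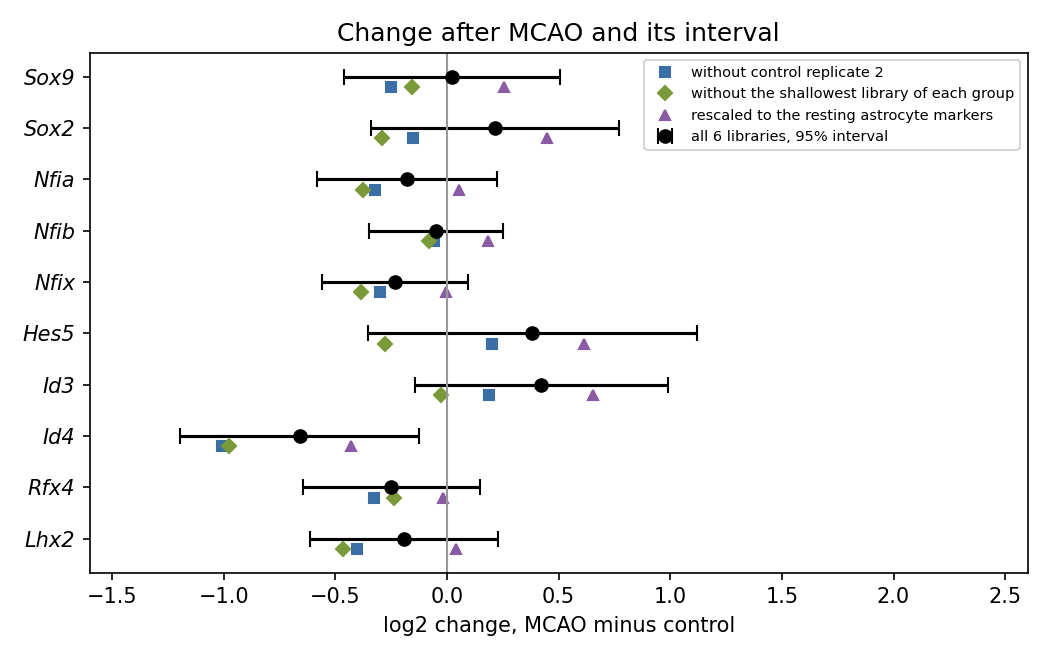
Log2 change of each factor gene, MCAO minus control (x axis), with the 95% interval of the limma fit on all 6 libraries in black, and below it the change under 3 other settings. Id4, Nfix and Rfx4 lie left of 0 under all 4 settings, Nfix and Rfx4 only just when rescaled to the astrocyte markers. Sox9, Sox2, Nfia, Nfib, Hes5, Id3 and Lhx2 change side in at least 1 of them.

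Ratios of related genes within a library do not depend on its scale, and 6 were compared. The ratio of Id3 to Id4 moved most. On the log2 scale it was -0.56, -0.36 and -0.84 in controls and -0.01, 0.99 and 0.50 in MCAO 1, 2 and 3. Every MCAO library was thus above every control, including control 2, and the difference was 1.08 (SE 0.32). How often ratios of other gene pairs separate the groups was not computed. For levels of single genes the groups did not overlap in 24.9% of tested genes. The two-sided exact permutation p was 0.1, the smallest that 3 against 3 animals can give, and 0.6 after Benjamini-Hochberg adjustment over the 6 ratios. Leaving out any 1 library or using a pseudocount of 0.1 gave differences of 0.83 to 1.33.

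The other ratios overlapped between the groups. Within the nuclear factor I family, Nfia to Nfix differed by 0.06 (SE 0.11, exact permutation p = 0.6) and Nfia to Nfib by -0.13 (SE 0.17, exact p = 0.5). Nfib to Nfix differed by 0.19 (SE 0.09, exact p = 0.2). Sox9 to Sox2 differed by -0.19 (SE 0.26, exact p = 0.6), with MCAO 2 alone at -1.54 and the other 5 libraries between -1.11 and -0.70. Hes5 to Hes1 differed by 0.36 (SE 0.35, exact p = 0.4). All these had adjusted p of 0.6.

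**Figure D3:**
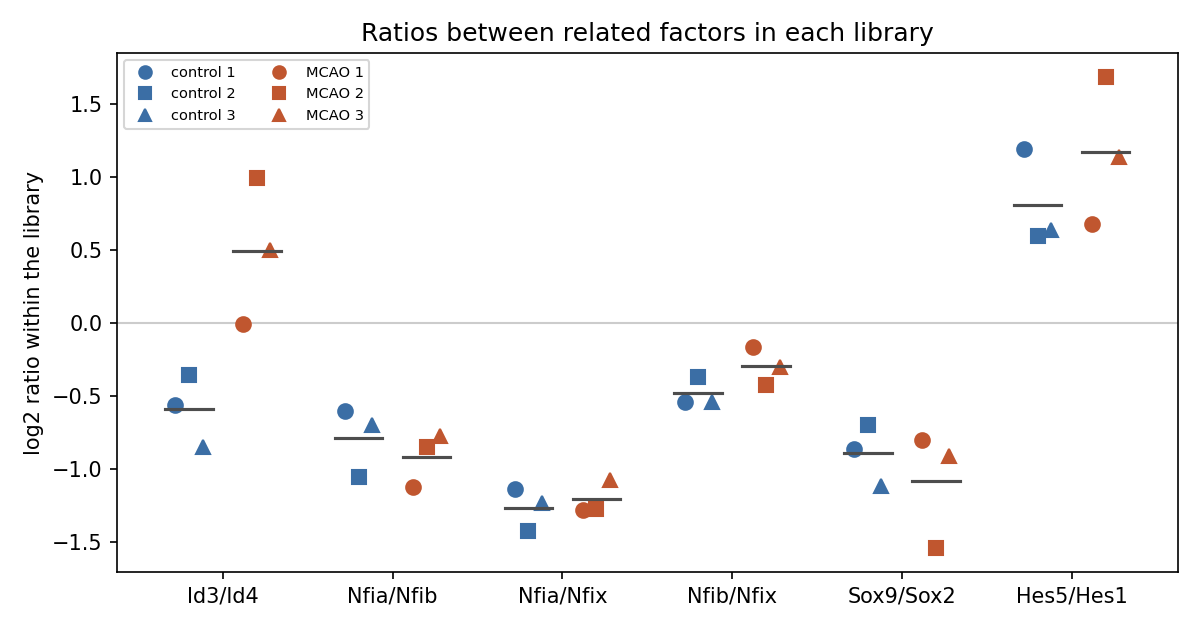
Log2 ratio of 2 related genes in each library (y axis) for 6 pairs (x axis), with controls in blue, MCAO in orange and group means as lines (n = 3). The Id3 to Id4 ratio is -0.84 to -0.36 in controls and -0.01 to 0.99 after MCAO, and the groups overlap in the other 5 pairs.

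The factor genes were also set against 18 resting astrocyte markers that include none of them, among others the glutamate transporter gene Slc1a2 and the secreted protein gene Sparcl1. The mean log2 level of the markers was 11.15, 10.39 and 11.13 in controls 1, 2 and 3 and 10.43, 10.73 and 10.83 in MCAO 1, 2 and 3. The mean of the 10 factor genes was 7.91, 7.24 and 7.73 in the controls and 7.32, 7.74 and 7.66 after MCAO. Control 2 and MCAO 1 were the lowest libraries in both means and control 1 the highest. Of the 18 markers limma called 0 (3 at an unadjusted p under 0.05), edgeR 0 and DESeq2 2, with a median log2 change of -0.21.

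Relative to the markers of the same library, control 2 was the lowest control for 2 of the 10 factor genes and the highest for 6. Sox2 (0.45 higher after MCAO, SE 0.16), Id3 (0.65 higher, SE 0.23) and Id4 (-0.43, SE 0.15) then had groups that did not overlap, 3 of 10 genes, against 15.9% of tested genes. For Id4 relative to the markers, the controls lay at -3.31, -3.67 and -3.43 and the MCAO libraries at -3.70, -4.03 and -3.96. The exact permutation p was 0.1 for each of the 3 and 0.333 after adjustment over the 10 genes. Nfix, Rfx4 and Lhx2 differed by 0.00, -0.02 and 0.04. With this scaling limma called 0 of the 10, against 2.36% of tested genes (282 higher and 14 lower), and the median change over every tested gene moved from -0.01 to 0.22, so the 0.45 of Sox2 and the 0.65 of Id3 are to be read against a general shift of that size.

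**Figure D4:**
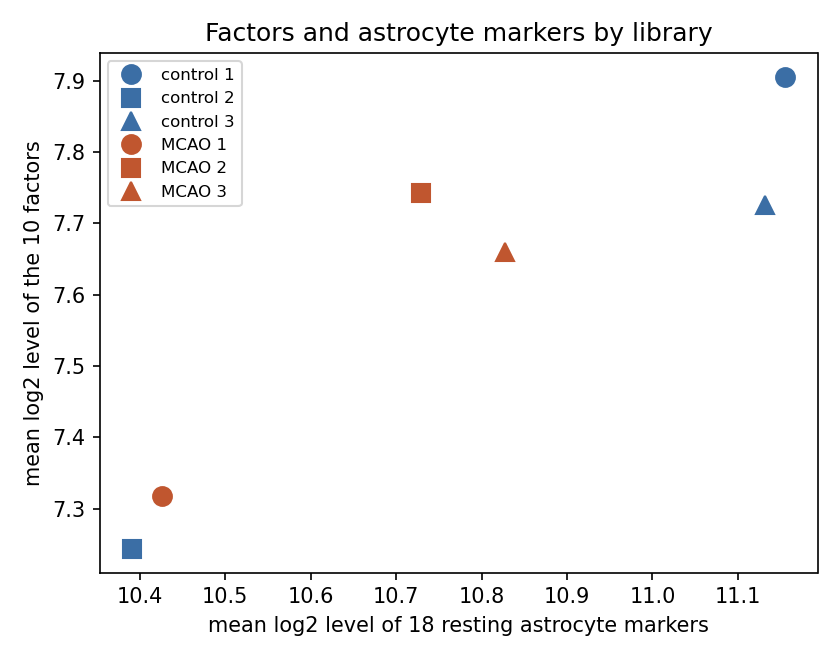
Mean log2 level of the 10 factor genes (y axis) against that of 18 resting astrocyte markers (x axis), 1 point per library, with neither axis starting at 0. Control 2 and MCAO 1 lie lowest on both axes, at 7.24 and 7.32 for the factors and 10.39 and 10.43 for the markers.

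Genes around these factors in the same pathways were mostly not called either. Of 22 tested Notch pathway genes limma called 0 (2 at an unadjusted p under 0.05; median log2 change -0.06). The most abundant were Adam10, a protease that cleaves Notch, at 317 ± 10.6 and 315 ± 60.5, and Lfng, a glycosyltransferase that modifies Notch, at 216 ± 56.1 and 178 ± 35.1. Of 17 BMP and SMAD genes 0 were called (4 at an unadjusted p under 0.05; median -0.17). Bmpr2, the type II BMP receptor gene, was at 569, 598 and 543 in controls and 501, 295 and 477 after MCAO, every MCAO library below every control (log2 change -0.46, SE 0.19, adjusted p = 0.195). Of 12 E protein and proneural genes, whose products ID proteins bind or compete with, 0 were called (2 at an unadjusted p under 0.05; median 0.01). Tcf4, an E protein gene, was at 663 ± 50.8 and 560 ± 45.3 (log2 change -0.24, SE 0.14). Olig1, of the oligodendrocyte lineage, was at 421 ± 95.5 and 671 ± 147 (0.67, SE 0.20, limma adjusted p = 0.0861) and was the 1 gene of these 3 lists that DESeq2 called, while edgeR called 0.

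Among the relatives of the factors, limma called 0 of 10 other SOX genes (2 at an unadjusted p under 0.05; median -0.16), 0 of 8 other NFI and RFX genes (1; -0.19) and 0 of 11 LIM homeodomain and LIM cofactor genes (2; -0.08), and edgeR and DESeq2 called 0 of these as well. Sox1, a close relative of Sox2, was at 187 ± 33.8 and 146 ± 20.6 (-0.35, SE 0.18), and Sox8, of the family of Sox9, at 165 ± 51.0 and 148 ± 65.9. Rfx3, a factor of ciliated cells, was at 139 ± 29.7 and 109.5 ± 22.5. The LIM cofactor gene Lmo4 was at 359 ± 27.3 and 412 ± 90.8, and Ssbp3 at 328 ± 7.06 and 299 ± 31.7.

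Of 18 other astrocyte and radial glia factors 1 fell and 0 rose (6 at an unadjusted p under 0.05; median -0.30). Npas3, which encodes a bHLH-PAS factor, was at 162, 133 and 163 scaled reads in controls and 77.7, 74.6 and 93.2 after MCAO, with no overlap. Its log2 change was -0.89 (SE 0.19, adjusted p = 0.0189). The call was lost without control 1, control 3, MCAO 1 or MCAO 2 (log2 changes of -0.86 to -0.83, adjusted p 0.0514 to 0.0916), with no intensity trend (-0.89, 0.0770) and relative to the astrocyte markers (-0.66, adjusted p = 0.510). Of 14 tested injury response factors 1 rose and 0 fell (4 at an unadjusted p under 0.05; median 0.30). Stat3, which drives reactive gene expression downstream of cytokine receptors, was at 168, 161 and 166 in controls and 311, 258 and 347 after MCAO (log2 change 0.87, SE 0.16, adjusted p = 0.00778). Its call was lost without MCAO 3 (0.78, adjusted p = 0.0647), with no intensity trend (0.87, 0.0759) and relative to the markers (1.10, adjusted p = 0.0736). On the same 2 lists edgeR and DESeq2 each called 2 genes, Npas3 with Gli3 and Stat3 with Cebpd. Gli3, a Hedgehog pathway factor gene chosen after its values were seen, had a limma log2 change of -1.09 (SE 0.30, adjusted p = 0.0680). The difference between Stat3 and the 10 factor genes was not tested.

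Markers of other cell types moved in the same libraries, and their part in the values of the factor genes was not tested. Reactive astrocyte markers rose in 8 of 11 (median 2.89, summed level 1129 to 1512 in controls and 7776 to 13180.5 after MCAO), and 1 of them, Lcn2, stood at the lowest listed value in every control. Microglia markers rose in 11 of 16 (median 1.89, 698 to 960 and 2510 to 3433), blood myeloid markers in 2 of 2 (2.47, 14.4 to 24.1 and 111 to 121; the other 5 listed were not in the table) and oligodendrocyte markers in 7 of 13 (0.76, 8766 to 9909 and 13045 to 16503). Of progenitor and cell cycle markers 4 of 6 rose (2.74, 206 to 240 and 364 to 404), and of oligodendrocyte precursor markers 1 of 7 (-0.01, 1144 to 1494 and 774 to 1253). Limma called none of 12 neuron (median -0.10), 4 endothelial (-0.05), 3 mural (-0.32), 4 fibroblast (-0.59) and 2 ependymal markers (0.62), of which 0, 0, 1, 0 and 0 had an unadjusted p under 0.05, and edgeR and DESeq2 called 0 of these. Control 2 had the highest summed neuron level of the 6 libraries (27870, lowest 21918) and the lowest summed astrocyte level of the controls (50231, against up to 85361). Summed endothelial levels were low, 61.0 to 76.3 in controls and 69.9 to 84.0 after MCAO, and 5 of the 11 listed endothelial genes were not in the table.

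Among 5707 genes whose mean reached 100, the gene whose log2 values followed each factor most closely over the 6 libraries had Pearson r of 0.985 to 0.998, as a description over 6 points that share library scale and depth. For Sox2 it was Cst3, the cystatin C gene (r = 0.998), for Hes5 it was Aph1a, a gamma-secretase subunit gene (0.998), and for Id4 it was Ntrk2, the receptor gene for BDNF (0.989). The nearest genes of Sox9, Nfia, Nfib, Nfix, Id3, Rfx4 and Lhx2 were Rnf181, Padi2, Phc2, Acsl6, Plekho2, Cs and Rnf144a. Within the 10, the closest pairs were Nfia and Nfix (r = 0.894), Sox2 and Id3 (0.867) and Id4 and Lhx2 (0.863), while Hes5 and Rfx4 ran most apart (-0.33). Each pair was picked as the closest among the 10, and whether it was unusually close was not tested. Of the 5707 genes, 0.911% followed Nfia more closely than Nfix did, 3.21% followed Sox2 more closely than Id3 did, and 2.73% followed Id4 more closely than Lhx2 did. Ntrk2 shared the pattern of Id4, at 4446, 2863 and 4500 in controls and 2679, 2802 and 3055 after MCAO, with control 2 within the range of the MCAO libraries.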

How the data were processed

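RNA from RiboTag precipitates of left hemisphere sections was sequenced in 6 libraries, 1 per animal. The deposited values are a normalised signal that the authors made; the submitters' processing notes name mm10, HISAT2 2.0.11, CASAVA 1.8, DESeq2, Partek 6.6 and R 3.3.1 without saying what each was used for. How reads were counted, with which strand setting, and how the 2 technical replicates per animal became 1 column is not stated. Each column consists of whole multiples of its own step, which gave back whole reads, to within 0.1 read, for at least 99.95% of values above 1; lower values stand at 1. MCAO 2 was the shallowest library, where 1 read is worth 3.11 scaled reads. Counting intervals of a single library, given for Hes5, cover counting error only, while intervals of a log2 change come from the limma fit.

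Genes with a mean of at least 10 were tested with limma 3.58.1 (R 4.3.3, intensity trend, two-sided, Benjamini-Hochberg) on log2(value + 1), a scale that makes changes of low genes look smaller; SE and intervals are moderated. The labels give no batch or pairing, and replicate numbers only name a library. In simulated libraries of the same depths, 93.7% of 190 genes changed by 3-fold were called among 12325 tested, with 7 false calls. The simulation gave every gene the same spread beyond counting error and no shift shared by genes of a library. A 3-fold change is also larger than any estimate for the 10 factor genes, so this share does not apply to them. Alternatives included edgeR 4.0.16 and DESeq2 1.42.0 on recovered reads. Ratios and levels relative to markers were compared by exact permutation tests. Named genes are the 10 factors, Hes1, Id1, Id2 and Nfic; of each pathway list at most 4 called genes or the 2 most abundant; at most 2 genes of a marker list; and the 1 nearest gene per factor. The factors and lists were chosen with earlier results of these data known. Gene coordinates and promoters are from RefSeq (GRCm38.p6).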

Additional observations from a re-analysis of the deposited data

How the results depend on the processing

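Over 20 alternative settings, the log2 changes of the 10 factor genes gave 200 values, of which 182 kept both the direction and the side of the threshold. No factor gene was called higher under any setting. The number called lower was 1, Id4, without control 2, without the shallowest library of each group and with library weights, and 0 otherwise. Signs changed in 15 values, none of them called: Sox9 with edgeR (-0.028), DESeq2 (-0.026), library weights (-0.15) and without the shallowest libraries (-0.16); Sox2 with weights (-0.083) and without the shallowest libraries (-0.29); Hes5 (-0.28) and Id3 (-0.027) without the shallowest libraries; and Nfia (0.053), Nfib (0.18) and Lhx2 (0.038) relative to the astrocyte markers. With 1 library left out, Sox9 ranged from -0.25 (without control 2; -0.10 without MCAO 3) to 0.24, Sox2 from -0.15 (without control 2) to 0.41, and Hes5 from -0.096 (without MCAO 2) to 0.69. The cause was not tested. Leaving out 1 library moved the count of called lower factor genes between 0 and 1. Called genes in all numbered 387, and 157 with no intensity trend, 1002 with library weights, 272 when genes had to reach a mean of 50, and 148 to 306 with 1 library left out.

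Likewise, the Nfia to Nfix ratio ranged from -0.023 (without control 2; -0.011 without MCAO 3) to 0.12 and Sox9 to Sox2 from -0.33 to 0.037 (without MCAO 2). Relative to the markers, Nfia ranged from -0.061 (without control 3) to 0.16, Nfix from -0.13 to 0.18 (without control 2; 0.052 without MCAO 3), Rfx4 from -0.17 to 0.16 (without control 2; 0.10 without MCAO 2) and Lhx2 from -0.0076 (without control 1) to 0.092. No paired analysis was possible because the labels give no replicate number shared between the groups. MCAO 2 was the shallowest library, with 33 reads of Id4 and 41 of Rfx4.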
